A study of Mus musculus with 2 samples.

Results

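9 genes known from the upper layers of the cerebral cortex were followed in the embryonic mouse forebrain: Cux1, Cux2, Satb1, the 4 class III POU genes Pou3f1, Pou3f2, Pou3f3 and Pou3f4, Rorb and Mef2c. They were taken by name, but with earlier results of these data known. All 9 of 9 were found among the 43346 mouse genes of the gene tables and again, transcript by transcript, in the transcript tables. Total RNA longer than 200 nucleotides was sequenced from the forebrain of B6NCrl mice at embryonic day 15.5, with embryos of mixed sex and no treatment, transgene or mutation in the labels. All samples form 1 group: replicate 1 pooled 78 embryos, and replicate 2 pooled 62 others. The libraries held 38720511 and 35103430 estimated reads over all entries (expected counts, replicate 1 first).

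The upper cortical layers hold neurons that are born late and connect mainly to other cortical areas. Cux1, Cux2 and Satb1 carry CUT repeats and a homeodomain; class III POU proteins bind octamer-like DNA through a POU-specific domain and a homeodomain, and Pou3f2 and Pou3f3 are known for their overlapping roles in the making and migration of upper-layer neurons. Rorb is an orphan nuclear receptor that marks layer 4 of the cortex, and Mef2c is a MADS-box factor of maturing neurons whose activity is held in check by class IIa histone deacetylases.

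Because whole forebrain was pooled, each value is a mean over many cell types, and fewer cells of a type and less RNA per cell cannot be told apart. All 5 telencephalic markers were present, with summed levels of 525 TPM in replicate 1 and 536 TPM in replicate 2, while 0 of 5 markers of midbrain, hindbrain and cord reached 1 TPM in both libraries (sums 0.340 and 0.280 TPM; En2 and Hoxb8 at 0 reads in both). TPM is the abundance of a gene's transcripts relative to all transcripts of the library, after correction for length. Many of the 9 factors are also made outside the cortex, and markers of such cells were measured: 3 of 3 thalamic markers were detected (sums 103 and 139.9 TPM), as were 4 of 4 of medial ganglionic eminence interneurons (277 and 285), 4 of 4 of striatal neurons (318 and 318), 5 of 5 of endothelium (135 and 143), 5 of 5 of microglia (65.3 and 65.7) and 4 of 4 of the oligodendrocyte lineage (42.5 and 37.6). T cell markers reached 1 TPM in both libraries in 0 of 4 cases (Ptprc, which microglia also make, was highest at 0.630 and 1.02 TPM), with Cd3e and Cd3g at 0 reads in both libraries (3 reads, the limit a count of 0 allows, would be 0.0959 and 0.104 TPM for Cd3e). The part of these cell types in the levels below was not tested.

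Levels of the 9 factors spanned about an order of magnitude, and every one lay in the detected range. All 9 reached 1 TPM in both libraries, which 34.4% of all mouse genes and 60.6% of protein-coding genes did, and all 9 also reached 10 TPM in both, which 40.9% of protein-coding genes did. The median over the 9 was 38.9 TPM in replicate 1 and 33.0 TPM in replicate 2, beside 21.1 and 20.8 TPM for the protein-coding genes detected in both. Because the members were chosen with earlier results of these data known, these shares and medians describe them and do not test them. These medians use whole-gene levels, and much Cux1 RNA is not for the homeodomain protein (below). With only homeodomain transcripts of Cux1 and full-length transcripts of Cux2, a setting chosen after seeing the data, the middle factor was Cux2. It had 20.7 and 20.7 TPM. With 1 group there was no contrast, and with 2 libraries the smallest two-sided exact sign-flip p is 0.5, so no test was made and each difference is set against the spread between the libraries (SD, n = 2). Bounds quoted for a level are those deposited with it; their interval level is not stated, and they cover counting error and the division of reads, not differences between embryos.

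**Figure D1:**
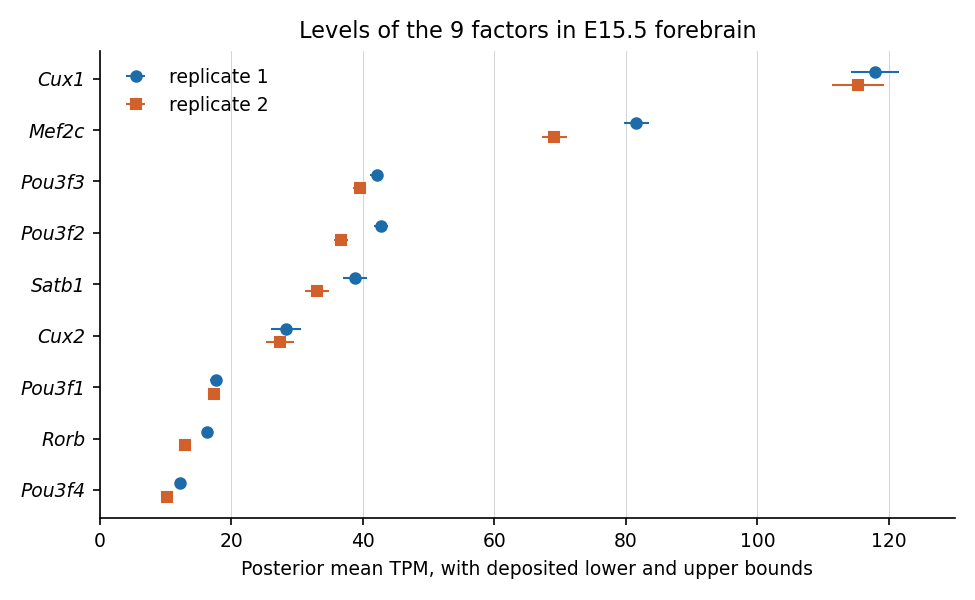
Posterior mean TPM (x axis) of the 9 factors (rows), with the deposited lower and upper bounds as bars and 1 point for each library. Cux1 is highest in both libraries, Mef2c is second and further apart between the libraries, and Pou3f4 is lowest.

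Cux1 had the highest level (ENSMUSG00000029705.13, chr5:136248135-136567490, minus strand, mm10). It stood at 120.2 TPM in replicate 1 and 118 TPM in replicate 2, 119 ± 1.57 TPM (SD, n = 2), from 8222 and 7346 reads, above 89.4% of the protein-coding genes detected in both libraries. Cux2, its paralog on the same chromosome (ENSMUSG00000042589.14, chr5:121856366-122050102, minus strand), stood at 27.8 and 26.8 TPM, 27.3 ± 0.728 TPM (SD, n = 2), from 3294 and 3015 reads. The log2 ratio of Cux1 over Cux2 was 2.12 ± 0.02 (SD, n = 2), but this gene-level ratio mixes different products of Cux1.

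The Cux1 gene yields the CUT and homeodomain transcription factor, and also CASP, a coiled-coil Golgi membrane protein that shares the 5′ exons and lacks the CUT repeats and the homeodomain. Of the 14 Cux1 transcripts listed, 5 run on into the CASP exons, 5 have the coding stop of the homeodomain protein, and 4 were classed as other. The last exon the coding classes share is chr5:136314307-136314403, and the junctions that leave it differ. They are printed because they decide which protein a read belongs to, with the shared exon in lower case and the start of the next exon in capitals (next exon of the CASP type chr5:136257913-136258040, of the homeodomain type chr5:136312643-136313008).
CASP-type junction: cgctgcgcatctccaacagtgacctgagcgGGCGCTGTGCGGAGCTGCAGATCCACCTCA
homeodomain-type junction: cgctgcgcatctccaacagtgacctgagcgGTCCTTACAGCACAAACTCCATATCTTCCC

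Most Cux1 RNA was of the CASP type. CASP-type transcripts had 85.8 TPM in replicate 1 and 80.9 TPM in replicate 2, 70.0 ± 2.03% of the gene's TPM (SD, n = 2), and took 5416 and 4663 reads. Homeodomain-type transcripts had 10.9 and 11.7 TPM, 9.48 ± 0.56% of TPM (SD, n = 2), from 1923 and 1834 reads. The remaining 23.5 and 25.5 TPM fell to the 4 other transcripts. By reads, which are not corrected for length, the CASP type took 64.7 ± 1.69% and the homeodomain type 24.2% of the gene, because the homeodomain transcripts are long (Cux1-201 has 12862 bases, Cux1-211 has 2831).

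Among single transcripts Cux1-211, of the CASP type, led with 61.8 TPM (deposited bounds 53.8 to 66.6) in replicate 1 and 55.0 TPM (48.2 to 60.2) in replicate 2, or 51.4 and 46.6% of the gene. Cux1-207, of the same type, followed at 19.3 and 19.7 TPM (16.1 and 16.7%). This pair differs in coding sequence by 6 bases at the edge of 1 exon, 183 bases in Cux1-211 (chr5:136326750-136326932) and 189 bases in Cux1-207 (chr5:136326750-136326938). Cux1-205, the remaining CASP-type transcript past 5% in a library, had 4.41 and 5.96 TPM. The retained-intron transcript Cux1-214 had 7.59 and 7.60 TPM. Cux1-208, an incomplete model of 805 bases whose last exon overlaps an exon of the homeodomain-type Cux1-209, had 13.1 and 14.7 TPM from 217 and 223 reads, and was kept among the other transcripts.

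**Figure D2:**
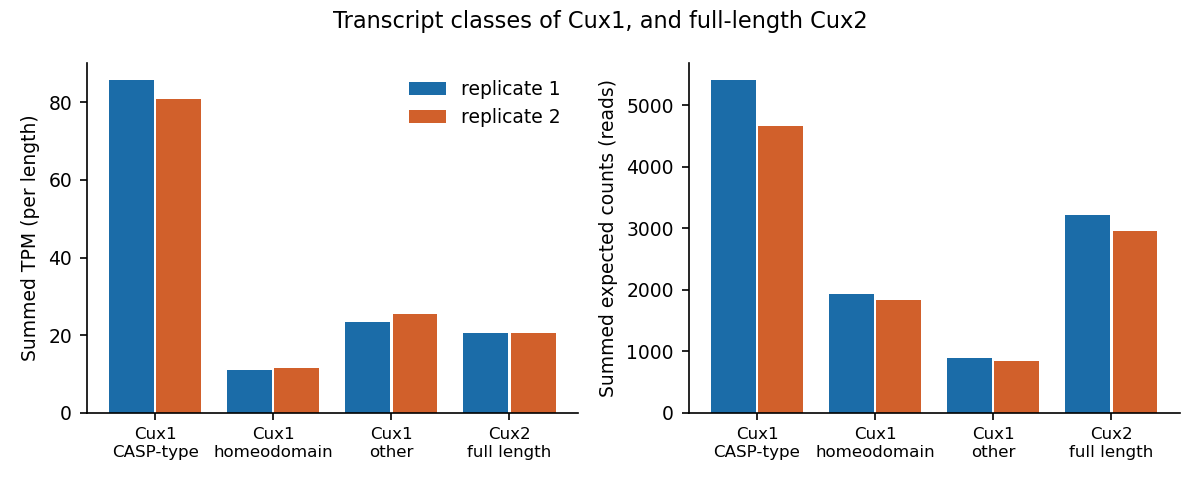
Summed TPM of the Cux1 transcript classes and of full-length Cux2 in each library. The CASP type lies above 80 TPM in both libraries, whereas the homeodomain type lies near 11 TPM, below full-length Cux2 at 20.7 TPM.

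The order of the Cux paralogs depended on which Cux1 transcripts were counted. Homeodomain-type Cux1 had 10.9 TPM in replicate 1 and 11.7 TPM in replicate 2, against 20.7 and 20.7 TPM for the Cux2 transcripts with the full coding length. That log2 ratio was −0.91 and −0.82 in the libraries, so Cux2 was higher. With Cux1-208 added to the homeodomain type, Cux1 had 24.03 and 26.35 TPM and the ratio was 0.22 and 0.35. The sign of the TPM ratio thus turned on 1 short model carried by 217 and 223 reads. In reads, which are not corrected for length, Cux2 was higher even with Cux1-208 added. Cux1 then had 2140 reads in replicate 1 and 2057 in replicate 2, against 3221 and 2958 for full-length Cux2. Both of these TPM ratios were chosen after the data had been seen. By homeodomain-type transcripts alone, Cux1 would stand at 11.3 ± 0.516 TPM (SD, n = 2), the lowest mean of the 9 factors, with a range that overlaps that of Pou3f4.

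Most Cux2 RNA was assigned to 1 full-length transcript. Transcripts with the full coding length took 97.8 and 98.1% of the gene's reads, and 74.3 and 77.1% of its TPM. Cux2-202 had 20.7 TPM in replicate 1 and 20.6 TPM in replicate 2 (74.3 and 76.9% of the gene), while Cux2-201, which has the same coding length and a start about 2 kilobases downstream, had 0 and 0.0600 TPM, from 0 and 6.70 reads. The short noncoding Cux2-203, which starts near Cux2-201, was listed at 1.06 and 0.940 TPM, on 6 and 4.89 reads. The noncoding Cux2-206 and Cux2-208 were listed at 9.28 and 9.27%, and at 7.21 and 6.27%, but rest on 33.7 and 29.8 reads and on 13 and 10 reads. The windows upstream of both start sites are printed to show how unlike they are (RefSeq annotation of GRCm38.p6, minus strand, 250 bases, CG pairs in capitals). The start of Cux2-202 has 40 CG pairs at chr5:122049852-122050101, a number reached by 1.31% of 32851 mouse promoter windows of this length. That of Cux2-201 has 3 at chr5:122047826-122048075, which 71.0% of windows reach.
Cux2-202 upstream: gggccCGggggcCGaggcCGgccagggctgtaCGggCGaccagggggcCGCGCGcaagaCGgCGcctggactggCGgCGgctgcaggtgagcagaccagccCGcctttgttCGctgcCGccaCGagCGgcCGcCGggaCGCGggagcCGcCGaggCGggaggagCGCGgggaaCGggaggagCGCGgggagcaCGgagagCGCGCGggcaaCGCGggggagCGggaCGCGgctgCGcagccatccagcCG
Cux2-201 upstream: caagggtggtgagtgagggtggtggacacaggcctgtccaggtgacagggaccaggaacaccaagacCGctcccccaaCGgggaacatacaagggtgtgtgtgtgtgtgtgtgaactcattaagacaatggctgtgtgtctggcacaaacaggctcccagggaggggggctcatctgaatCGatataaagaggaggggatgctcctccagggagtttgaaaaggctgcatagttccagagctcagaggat
Both strands of the factors' own windows were searched for 2 motifs: the octamer ATGCAAAT of POU proteins was in none of the 16 windows of 8 factors (Pou3f1 has none in the promoter table), and ATCGAT, a core associated with Cux proteins, was in 1, that of Cux2-201. Of all windows 1.60 and 0.728% hold these motifs. A match is only a match of letters. No listed transcript starts within 50 bases of the starts used for Cux1 and Pou3f4, or of some of those used for Satb1 and Mef2c.

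Satb1, a CUT-domain organiser of chromatin loops known from thymocytes and from cortical interneurons and projection neurons (ENSMUSG00000023927.11, chr17:51736187-51833290, minus strand), stood at 38.9 TPM in replicate 1 and 33.0 TPM in replicate 2, 35.95 ± 4.21 TPM (SD, n = 2), from 3570 and 2741 reads. The interneuron markers given above summed to 277 and 285 TPM, of which Sst alone made 203 and 212 TPM. The T cell markers summed to 0.760 and 1.05 TPM. The part of these cells in the Satb1 level was not tested. Satb1-204 was the leading transcript at 18.3 and 13.1 TPM (47.1 and 39.8% of the gene), followed by Satb1-208 at 6.70 and 6.25 TPM. Satb1-203 was listed at 2.76 TPM in replicate 1 and 6.19 TPM in replicate 2, with bounds of about 0 to 5.21 and of 2.34 to 9.87 that overlap. Satb1-207, at 5.64 and 3.98 TPM, is the transcript with an added coding exon of 96 bases (chr17:51742047-51742142), so 14.5 and 12.1% of Satb1 RNA was assigned to it.

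The leading 2 Satb1 transcripts have unlike upstream windows, printed here with CG pairs in capitals: 41 CG pairs for Satb1-208 (chr17:51832648-51832897; 1.09% of all windows have as many) and 5 for Satb1-204 (chr17:51833291-51833540; 55.6%). By these models the start with more CG pairs was not the one with more RNA, the other way round from Cux2. The models also differ at their 3′ ends (Satb1-204 has 3461 bases and Satb1-208 has 6243). So do Cux2-202 and Cux2-201 (6763 and 5113 bases). The levels therefore do not separate the use of a start from that of an end.
Satb1-208 upstream: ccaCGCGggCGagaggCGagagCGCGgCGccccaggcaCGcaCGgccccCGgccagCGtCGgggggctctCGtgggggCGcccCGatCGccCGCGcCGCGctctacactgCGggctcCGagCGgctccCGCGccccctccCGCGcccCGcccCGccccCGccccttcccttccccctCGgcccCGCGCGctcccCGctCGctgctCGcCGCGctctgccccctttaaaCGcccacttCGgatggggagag
Satb1-204 upstream: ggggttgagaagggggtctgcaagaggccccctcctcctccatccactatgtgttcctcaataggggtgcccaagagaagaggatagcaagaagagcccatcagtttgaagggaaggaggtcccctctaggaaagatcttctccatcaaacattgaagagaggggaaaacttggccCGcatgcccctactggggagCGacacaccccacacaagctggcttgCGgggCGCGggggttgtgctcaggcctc

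The 4 class III POU genes each consist of 1 exon and fell into a higher and a lower pair. Pou3f3, also called Brn1 (ENSMUSG00000045515.3, chr1:42695768-42703176, plus strand), had 43.2 TPM in replicate 1 and 40.6 TPM in replicate 2, from 7383 and 6375 reads. Pou3f2, or Brn2 (ENSMUSG00000095139.2, chr4:22482780-22488366, minus strand), had 43.8 and 37.7 TPM, from 5626 and 4448 reads. These ranges overlap, so no order between Pou3f3 and Pou3f2 is given by these libraries. Pou3f1, or Oct6, a regulator of myelinating Schwann cells also made in cortical neurons (ENSMUSG00000090125.3, chr4:124656807-124660655, plus strand), was at 18.1 and 17.8 TPM. Pou3f4, the X-linked gene of inherited deafness, also made in striatum (ENSMUSG00000056854.4, chrX:110814280-110817207, plus strand), was at 12.5 and 10.4 TPM, from 826 and 633 reads. Pou3f2 plus Pou3f3 exceeded Pou3f1 plus Pou3f4 by a log2 ratio of 1.49 ± 0.03 (SD, n = 2), a difference larger than the spread between the libraries.

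Such close relatives could share reads, so their sequences were compared. Over the 6 pairs, 72.1 to 77.3% of aligned coding bases were identical. Over the whole transcripts, untranslated parts included, the longest exact run shared was 23 to 38 bases (the longest between Pou3f1 and Pou3f2). The counts of Pou3f2, Pou3f3 and Pou3f4 were whole numbers in both libraries and that of Pou3f1 in replicate 1, as when no read is divided. In replicate 2 Pou3f1 had 1433.92 reads. The antisense model Gm2164, which overlaps Pou3f1 by 363 bases, had 0 reads in replicate 1 and 1.08 in replicate 2. Which entries shared a read was not tested. The stretch of 60 coding bases most alike across these genes was found by a search along Pou3f2, and shows how little separates them at their closest. Of its 60 bases, 3 in Pou3f1, 6 in Pou3f3 and 5 in Pou3f4 differ from Pou3f2 (in capitals, GENCODE transcripts, coding strand).
Pou3f1 chr4:124658556-124658615: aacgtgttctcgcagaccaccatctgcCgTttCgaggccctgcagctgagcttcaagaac
Pou3f2 chr4:22487166-22487225: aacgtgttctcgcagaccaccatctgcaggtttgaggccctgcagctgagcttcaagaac
Pou3f3 chr1:42698193-42698252: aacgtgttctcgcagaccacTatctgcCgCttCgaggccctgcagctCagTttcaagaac
Pou3f4 chrX:110815137-110815196: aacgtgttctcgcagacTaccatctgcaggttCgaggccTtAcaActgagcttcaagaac

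The CCAAT motif, the letters bound by NF-Y, was counted on both strands of the windows. Those of Pou3f3 and Pou3f4 hold 3 matches each (2.79% of all windows hold as many), and those of Pou3f2 and of 1 Mef2c start hold 2 (10.1%). Pou3f1 has no window, and no listed transcript starts within 50 bases of the start used for Pou3f4 or of that Mef2c start. The matches therefore cannot compare the higher POU pair with the lower. The windows of the higher pair are printed with those letters in capitals (chr1:42695518-42695767 and chr4:22488367-22488616).
Pou3f3 upstream: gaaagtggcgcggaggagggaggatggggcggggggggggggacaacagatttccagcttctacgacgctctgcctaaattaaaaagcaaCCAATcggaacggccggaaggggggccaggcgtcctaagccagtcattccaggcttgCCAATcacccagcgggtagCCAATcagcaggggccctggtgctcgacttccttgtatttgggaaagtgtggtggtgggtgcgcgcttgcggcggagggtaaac
Pou3f2 upstream: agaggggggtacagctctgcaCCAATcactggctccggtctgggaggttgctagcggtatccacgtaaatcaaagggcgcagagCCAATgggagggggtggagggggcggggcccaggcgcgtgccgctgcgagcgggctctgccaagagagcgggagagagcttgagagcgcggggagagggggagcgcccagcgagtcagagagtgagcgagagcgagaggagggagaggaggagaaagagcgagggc

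The Pou3f3 window lies within a gap of 925 bases that parts Pou3f3 from Pantr1, a long noncoding RNA on the opposite strand (chr1:42590782-42694842). Pantr1 stood at 419 TPM in replicate 1 and 441 TPM in replicate 2, 430 ± 15.2 TPM (SD, n = 2), which is 10.3 ± 0.816 times the level of Pou3f3 per length. In reads the order was reversed: Pantr1 took 5105 and 4945 reads, 0.734 ± 0.0596 of those of Pou3f3, because its main transcripts are short (615, 680 and 499 bases). Pantr2, at 21.9 ± 0.247 TPM (SD, n = 2), lies 3884 bases away and rests on 404 and 363 reads. A sense-overlapping model at Pou3f3, AC122898.1, was at 1.58 and 1.64 TPM. Of the coding neighbours within 10 kilobases, Sh2b2, 1578 bases from Cux1, was at 23.7 and 22.4 TPM, and Pheta1, 1733 bases from Cux2, at 49.2 and 48.5 TPM. Antisense models over the factors were near 0 (Gm16599 at Cux1 0.0900 and 0.0500 TPM, Gm15637 at Cux2 0.0600 and 0, Gm2164 at Pou3f1 0 and 0.150, Gm6934 at Satb1 0.710 and 0.620), and no source used here gives the strand setting, so reads of such overlaps cannot be told apart. Same-strand models within Satb1 ran from 0.2 and 0.19 TPM for Gm36931 to 3.26 and 3.02 TPM for C230085N15Rik (323 and 275 reads). Those within Cux1 were at 0.74 and 0.62 TPM (Gm38082) and at 0.23 and 0.22 TPM (A430110C17Rik).

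Rorb (ENSMUSG00000036192.11, chr19:18930605-19111196, minus strand) was among the lower members and the least even between the libraries. It stood at 16.7 TPM in replicate 1 and 13.2 TPM in replicate 2, 15.0 ± 2.47 TPM (SD, n = 2), from 3215 and 2320 reads. Its paralog Rora, a nuclear receptor of thalamus and cerebellum, was at 9.75 and 10.1 TPM, and the log2 ratio of Rorb over Rora was 0.58 ± 0.27 (SD, n = 2), 0.77 and 0.39 in the libraries. Rorb is also made in thalamus, and the summed thalamic markers differed between the libraries the other way, at 103 and 139.9 TPM; their part was not tested.

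Rorb RNA was divided mainly between transcripts from 2 start sites. Rorb-203, from the distal start, had 8.79 TPM in replicate 1 and 6.46 TPM in replicate 2 (52.6 and 48.9% of the gene), and Rorb-201, from the start inside the gene, had 6.05 and 5.18 TPM (36.2 and 39.3%). The retained-intron transcript Rorb-204 was listed at 1.87 and 0 TPM and Rorb-205 at 0 and 1.56 TPM, so the libraries divided a like amount between them in opposite ways. Both begin near the start of Rorb-201, and all transcripts from there summed to 7.92 and 6.74 TPM (47.4 and 51.1%). By start site, the distal one was thus higher in replicate 1 and the inner one in replicate 2. Rorb-203 and Rorb-201 begin their coding sequence differently. Their starts are printed with the bases of the first coding exon in capitals, 7 in Rorb-203 (chr19:19110552-19110558) and 40 in Rorb-201 (chr19:19001007-19001046).
Rorb-203 coding start: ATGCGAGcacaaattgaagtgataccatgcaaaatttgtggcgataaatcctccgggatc
Rorb-201 coding start: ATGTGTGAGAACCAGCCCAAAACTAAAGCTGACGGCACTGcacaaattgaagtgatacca
The windows upstream of these starts hold 18 CG pairs for Rorb-203 (chr19:19111197-19111446; 21.7% of windows have as many) and 4 for Rorb-201 (chr19:19001118-19001367; 62.2%), with CG pairs in capitals.
Rorb-203 upstream: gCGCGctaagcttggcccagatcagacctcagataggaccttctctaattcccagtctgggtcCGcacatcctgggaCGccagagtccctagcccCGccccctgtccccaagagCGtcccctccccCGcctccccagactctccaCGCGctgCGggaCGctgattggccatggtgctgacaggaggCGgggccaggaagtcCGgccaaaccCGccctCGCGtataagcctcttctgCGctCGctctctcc
Rorb-201 upstream: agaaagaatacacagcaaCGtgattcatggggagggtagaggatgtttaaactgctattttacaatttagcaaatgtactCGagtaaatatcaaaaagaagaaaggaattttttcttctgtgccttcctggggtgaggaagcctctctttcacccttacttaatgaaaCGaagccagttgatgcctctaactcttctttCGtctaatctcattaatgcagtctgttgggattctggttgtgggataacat

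Mef2c (ENSMUSG00000005583.12, chr13:83504034-83667080, plus strand) was second among the 9, at 83.6 TPM in replicate 1 and 71.0 TPM in replicate 2, 77.3 ± 8.90 TPM (SD, n = 2), from 8325 and 6505 reads. It held 63.3 ± 2.90% of the TPM of the MEF2 family (SD, n = 2). Mef2c is also made in endothelium and microglia, whose markers are given above, and their part was not tested. Of its transcripts, Mef2c-203 led with 58.7 and 49.7 TPM (70.3 and 70.1% of the gene), and Mef2c-202 followed with 23.9 and 20.4 TPM (28.5 and 28.8%). Mef2c-201 had 1.01 and 0.800 TPM. The division was thus alike in both pools although the level was not.

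The leading Mef2c transcripts differ in a coding exon: Mef2c-203 holds one of 24 bases (chr13:83654598-83654621) that Mef2c-202 and Mef2c-201 lack, and Mef2c-202 one of 60 bases (chr13:83625265-83625324) that the others lack. They also start at different sites, so the levels do not separate the use of an exon from that of a start, and 28 further GENCODE M21 transcripts of Mef2c are not in the tables. The exons are printed in capitals between their neighbours, from M21 models, whose lengths for these transcripts differ from those in the tables.
Mef2c 24-base exon: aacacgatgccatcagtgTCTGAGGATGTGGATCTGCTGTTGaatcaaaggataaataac
Mef2c 60-base exon: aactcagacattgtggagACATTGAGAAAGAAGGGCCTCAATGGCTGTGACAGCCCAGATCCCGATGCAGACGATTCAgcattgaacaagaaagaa

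In the order of levels, Cux1, Mef2c, Pou3f3, Pou3f2, Satb1, Cux2, Pou3f1, Rorb and Pou3f4, 6 of 8 neighbouring pairs did not overlap between the libraries. The ranges of Pou3f3 and Pou3f2 overlapped, and so did those of Pou3f2 and Satb1. Without the correction for length the order was Cux1, Mef2c, Pou3f3, Pou3f2, Cux2, Satb1, Rorb, Pou3f1 and Pou3f4, with 4 of 8 pairs apart.

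The relatives of these factors differed widely in level. Of the 10 other POU genes, 5 reached 1 TPM in both libraries, among them Pou6f1 (33.0 and 32.8 TPM), Pou2f1 (18.1 and 18.8 TPM), Pou2f2 (14.05 and 14.0 TPM) and Pou4f1, a factor of sensory and habenular neurons (2.11 and 2.54 TPM). Pou1f1, Pou2f3, Pou4f2, Pou4f3 and Pou5f1 were at 0.0800 TPM or less in each library. Of the Onecut genes, CUT-domain relatives of Cux1 and Cux2, only Onecut2 reached 1 TPM in both (1.66 and 1.28 TPM). In the MEF2 family Mef2a had 26.5 and 28.2 TPM, Mef2d 17.6 and 16.5 TPM and Mef2b 0.180 and 0.190 TPM.

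**Figure D3:**
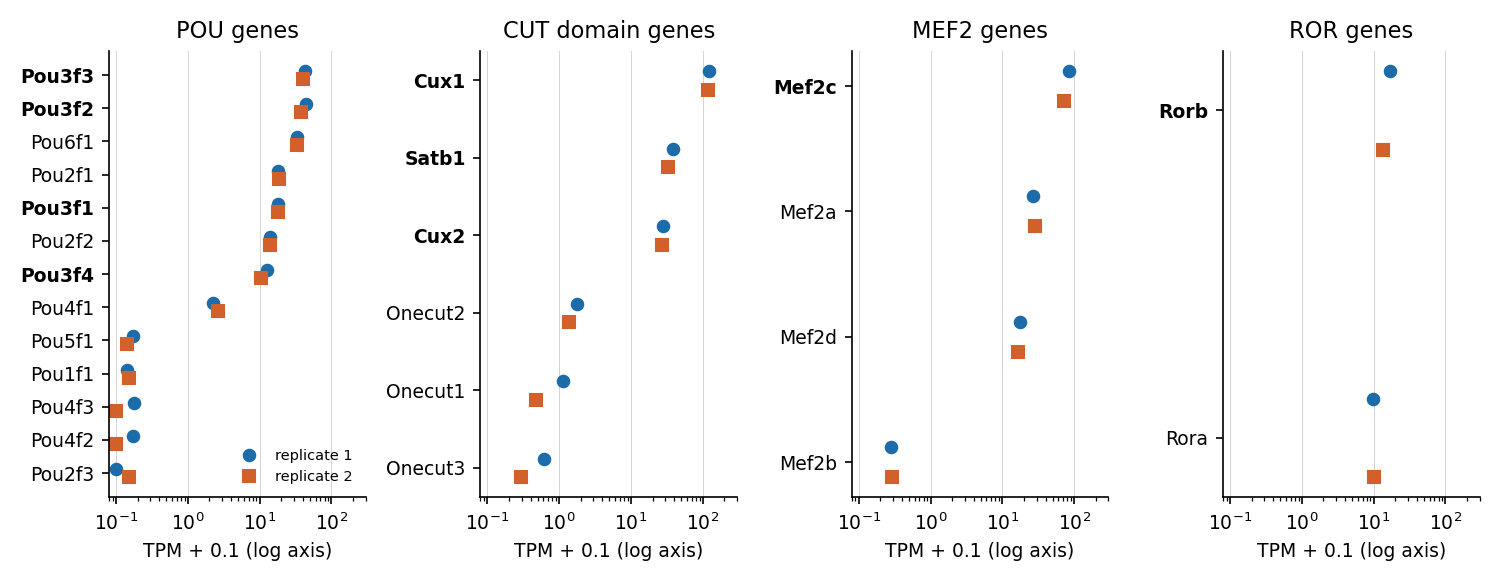
TPM + 0.1 (log axis) of POU, CUT, MEF2 and ROR genes, with the followed factors in bold and 1 point for each library. Cux1, Satb1, Cux2, Mef2c and Rorb stand above the other genes shown in their panels, and Pou3f3 and Pou3f2 lead the POU genes.

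Of 11 known partners and targets, 10 reached 1 TPM in both libraries, with a median of 26.2 TPM in replicate 1 and 26.4 TPM in replicate 2. Sox11, a partner of class III POU proteins, was far higher than any of the 9 factors at 876 and 869.8 TPM, and Sox2, another, was at 31.5 and 30.4 TPM. Nes, with joint POU and Sox sites in a neural enhancer, and Dll1, a Notch ligand with POU sites in an enhancer, were at 40.1 and 45.8 TPM and at 28.6 and 29.6 TPM. The class IIa deacetylases that bind Mef2 proteins were led by Hdac5 (109 and 107 TPM), with Hdac4 at 26.2 and 26.4 TPM, Hdac7 at 22.1 and 21.3 TPM and Hdac9 at 6.5 and 6.96 TPM. The Cux targets Xlr3b and Xlr4b were at 10.5 and 13.3 TPM and at 0.410 and 0.280 TPM. All 9 of 9 other genes of upper-layer or subventricular cells were detected, with medians of 15.8 and 14.5 TPM. The medians of the 9 factors were 38.9 and 33.0 TPM by whole genes. By homeodomain-type Cux1 and full-length Cux2, the middle factor had 20.7 and 20.7 TPM. Of the other genes the highest was Lmo4, a LIM-domain cofactor, at 118 and 115 TPM. The lowest was Rasgrf2, an exchange factor for Ras, at 2.70 and 1.88 TPM. Eomes, a marker of intermediate progenitors, was at 23.4 TPM in replicate 1 and 28.0 TPM in replicate 2.

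After TMM scaling, 5 of 9 factors differed between the libraries by more than 1.1-fold, all higher in replicate 1. Spike-in scaling lowered the log2 ratios of all 9 by about as much as the median over all genes (−0.20). None of those 5 then stayed past 1.1-fold, and their log2 ratios ran from −0.0005 for Pou3f2 to 0.13 for Rorb. Their distance from the median gene was about the same under both scalings. As TPM, 9 of 9 were higher in replicate 1, as were 55.6% of genes at 10 TPM or more. The TMM-scaled log2 ratio of replicate 1 over replicate 2 was 0.33 for Rorb, 0.24 for Pou3f4 and Satb1, 0.21 for Mef2c and 0.20 for Pou3f2, and between −0.01 and 0.07 for Pou3f3, Cux1, Pou3f1 and Cux2. Rorb, at 1.26-fold, was the only one past a log2 ratio of 0.32 in size, as were 2.27% of genes at 10 TPM or more; past 1.1-fold were 17.6% of those genes. The central 90% of those genes lay between −0.19 and 0.17. Of the hypothalamic neuroendocrine markers, which summed to 47.0 TPM in replicate 1 and 9.56 TPM in replicate 2, Avp made 40.9 and 4.45 TPM. Otp (3.01 and 1.13 TPM) and Sim1 (0.780 and 0.370 TPM) were also higher in replicate 1, while Oxt (1.14 and 2.16 TPM) and Crh (1.22 and 1.45 TPM) were higher in replicate 2; their part was not tested. With spike-in scaling the median over all genes moved by −0.20, Rorb stood at 0.13 and 0 of 9 were past 0.32. The share of all genes past these limits was not computed for that scaling. The members then past 1.1-fold were Cux2 (−0.21), Pou3f1 (−0.19) and Cux1 (−0.18), all higher in replicate 2 and all close to that shift of the median.

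**Figure D4:**
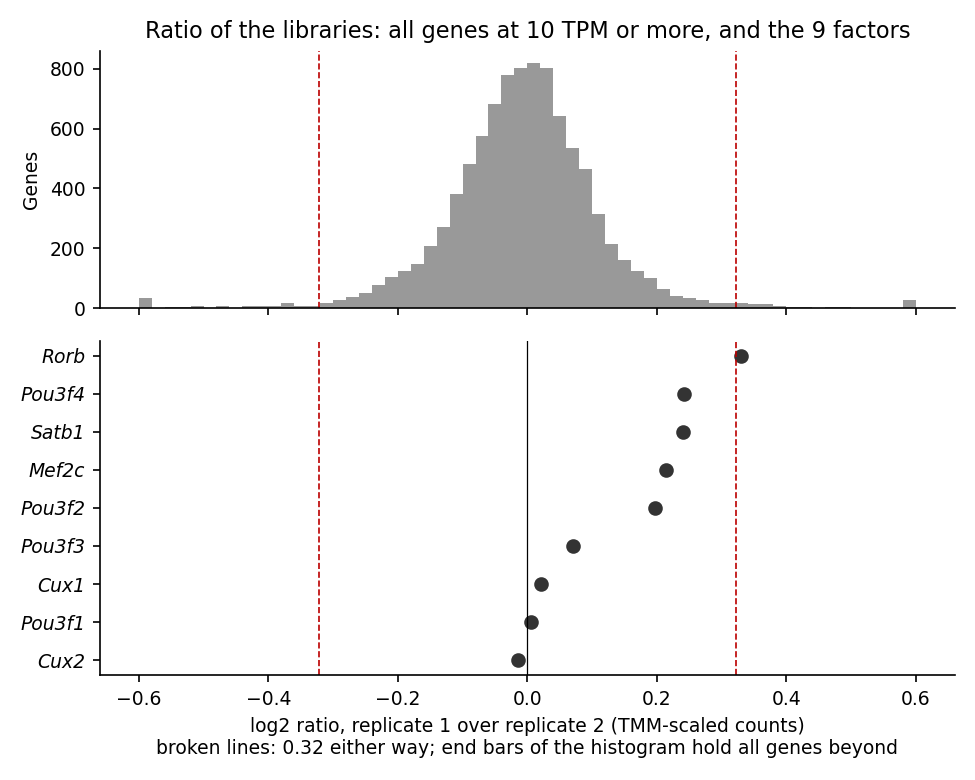
Log2 ratio of replicate 1 over replicate 2 for the 9 factors after TMM scaling, against the distribution over genes at 10 TPM or more. Rorb, Pou3f4, Satb1, Mef2c and Pou3f2 lie beyond the upper edge of the central 90%, and the other 4 near 0.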

How the data were processed

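Values came from a gene table and a transcript table for each library, on mm10 with GENCODE M4 per the file headers. No source used here names the aligner, the quantifier or their versions, or says whether counting used strand. Libraries were made from 10 ng of RNA plus spike-ins. The labels link the manual of a cDNA kit primed from poly(A) tails, without stating which priming was used. Expected counts, as deposited, are estimates of reads and can be fractions of a read where reads were divided. The deposited TPM values correct these for effective length (length minus 99), include the spike-ins in their sum, and come with posterior means and with lower and upper bounds. Each transcript's part of its gene is a deposited percent value.

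Exons, coordinates and transcript names were taken from GENCODE M21 (same assembly), where 45 of the 50 member transcripts have the length given in the tables, and promoter windows from RefSeq (GRCm38.p6). Cux1 transcripts were classed as homeodomain type when they had the coding stop of the longest coding transcript. Those that end 3′ of all homeodomain-type transcripts were classed as CASP type, and the rest as other. Log2 ratios used TPM + 0.1. To compare the pools, expected counts were rounded and genes kept at a summed count of at least 10; TMM factors came from edgeR 4.0.16 (R 4.3.3), 0.5 was added, and the step was tested on simulated data. Detection means 1 TPM in each library. The members and lists were chosen with earlier results of these data known. Named are all members, their transcripts at 5% or more of the gene in either library, the listed relatives, partners, targets and markers, and genes within 10 kilobases. Cux1-201, Cux1-209, Cux2-201, Cux2-203 and Mef2c-201 lie outside this rule and were chosen after their values were seen. Some genes of the lists are not reported here. Alternatives were DESeq2 1.42.0 size factors, spike-in scaling, posterior means, CPM, other thresholds and pseudocounts, and single libraries. Python 3.11.15, pandas 2.3.3, numpy 2.4.6, Biopython 1.88 and matplotlib 3.10.9 were also used. The replicates are separate pools of embryos.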

Additional observations from a re-analysis of the deposited data

How the results depend on the processing

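The log2 ratio of Cux1 over Cux2 (2.12) was 2.06 with posterior means, 1.3 without length correction and 2.09 with a pseudocount of 1. With homeodomain-type transcripts over full-length Cux2 it reversed to −0.87, and with Cux1-208 added it was 0.28 (both chosen after seeing the data). The log2 ratio of Pou3f2 plus Pou3f3 over Pou3f1 plus Pou3f4 (1.49) was 2.41 without length correction and 1.46 with a pseudocount of 1, and that of Rorb over Rora (0.58) was 1.98 without length correction. The CASP-type share (70.0%) was 64.7% of reads and 76.7% among coding transcripts. Members past a log2 ratio of 0.32 between the pools (1) became 0 with spike-in scaling, which moved the median over all genes by −0.20. They became 5 at 1.1-fold and 0 at 1.5-fold. In single libraries the Rorb to Rora ratio ran from 0.39 to 0.77, the Mef2c share from 61.3 to 65.4% and the CASP-type share from 68.5 to 71.4%. Detection of all 9 held at every threshold tried. For single members, levels stayed within 1 SD of the main value in 5 of 9 cases after rescaling without spike-ins and transfer RNA (changes of up to 5.93%) and in 7 of 9 with posterior means (up to 2.53%). Single libraries lay up to 11.7% from the mean. No paired analysis was possible because there was 1 group. Depth limits shares carried by few reads, such as that of Cux2-208 (13 and 10 reads), and overlapping models limit others, such as Satb1-203, whose bounds begin near 0 in replicate 1.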
